A study of Homo sapiens with 8 samples.

Results

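The neuropilins NRP1 and NRP2, the plexins PLXNA1, PLXNA2, PLXNB1 and PLXND1, and the class 3 semaphorins SEMA3A, SEMA3B, SEMA3C and SEMA3F were examined in ALK inhibitor-resistant lung cancer cells. These 10 genes were picked by symbol, through the gene identifiers of the table and GENCODE, out of 43869 genes that have an H3K27ac peak within 20 kb. The table pairs them with 244 of its 126470 peaks, and no peak is paired with more than 1 of the 10 genes. The choice of genes had used the same RNA and peak values that follow, so these are given as a description.

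Values were available for 4 cell lines. Naive cells are H3122 lung adenocarcinoma cells, which carry the EML4-ALK fusion, and the other lines were derived from them by gradually raising the dose of an ALK inhibitor. Once resistant, erCriz0 was kept in 0.5 μM crizotinib, erAlec0 in 2 μM alectinib, and erLor0 in 2 μM lorlatinib. RNA was taken after 48 h without inhibitor, and the labels of the ChIP samples name DMSO vehicle. RNA-seq and H3K27ac ChIP-seq each gave 1 library per line, and no difference between lines could be checked against replicates. No error or p-value is therefore given, and each resistant line stands for 1 derivation. All 3 resistant lines are compared with the same naive library, so an unusual value there moves all 3 changes together.

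Class 3 semaphorins are secreted guidance proteins. They bind neuropilins, which have short cytoplasmic tails, and the plexins that pair with neuropilins carry the signal into the cell by acting on small GTPases. SEMA3A acts mainly through NRP1 and SEMA3F mainly through NRP2, whereas SEMA3B and SEMA3C can use either. Neuropilins also bind VEGF family members. SEMA3B and SEMA3F lie close together on the short arm of chromosome 3, in an interval that is often lost in lung cancer, and both have been studied as growth-restraining genes. H3K27ac marks active promoters and enhancers.

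The windows below are the RefSeq promoters (GRCh38.p14, 250 bases before to 50 after a start, gene strand, 5′ to 3′) of the 4 genes whose RNA changed, and of PLXNA2, whose H3K27ac rose without its RNA. Capitals mark the GC box GGGCGG, the E-box CAGGTG and the TEAD motif GGAATG, read on both strands. Of 10 genes, 8 had an entry in this table, with 16 promoters in all, and each of the 16 was identical to hg38. NRP1 and SEMA3A had none.
NRP2, chr2:205682251-205682550, plus strand: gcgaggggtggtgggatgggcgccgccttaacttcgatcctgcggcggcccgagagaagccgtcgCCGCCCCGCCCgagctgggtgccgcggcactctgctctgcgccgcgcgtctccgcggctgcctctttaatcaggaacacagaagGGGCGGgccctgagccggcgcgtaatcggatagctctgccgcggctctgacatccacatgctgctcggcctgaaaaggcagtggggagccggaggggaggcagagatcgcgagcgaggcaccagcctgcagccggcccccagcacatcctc
PLXND1, chr3:129606627-129606926, minus strand: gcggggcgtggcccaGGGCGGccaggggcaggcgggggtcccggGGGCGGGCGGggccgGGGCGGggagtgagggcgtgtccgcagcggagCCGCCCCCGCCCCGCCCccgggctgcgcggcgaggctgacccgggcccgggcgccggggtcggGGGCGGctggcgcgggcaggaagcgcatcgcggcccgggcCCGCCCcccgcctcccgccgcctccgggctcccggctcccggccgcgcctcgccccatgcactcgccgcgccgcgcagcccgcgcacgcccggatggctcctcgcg
SEMA3B, chr3:50267402-50267701, plus strand: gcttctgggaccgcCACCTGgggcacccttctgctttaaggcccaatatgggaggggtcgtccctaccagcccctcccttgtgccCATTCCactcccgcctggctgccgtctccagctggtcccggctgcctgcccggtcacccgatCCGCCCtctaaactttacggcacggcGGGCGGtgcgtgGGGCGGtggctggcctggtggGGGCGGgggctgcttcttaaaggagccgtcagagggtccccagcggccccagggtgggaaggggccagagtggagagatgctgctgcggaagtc
SEMA3F, chr3:50154808-50155107, plus strand: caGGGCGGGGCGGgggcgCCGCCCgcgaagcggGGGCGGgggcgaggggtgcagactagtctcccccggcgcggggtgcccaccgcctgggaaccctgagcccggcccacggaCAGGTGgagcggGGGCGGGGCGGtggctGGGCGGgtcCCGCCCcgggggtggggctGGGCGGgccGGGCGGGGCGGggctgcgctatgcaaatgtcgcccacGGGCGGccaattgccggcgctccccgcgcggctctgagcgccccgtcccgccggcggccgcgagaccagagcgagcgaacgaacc
PLXNA2, chr1:208244335-208244634, minus strand: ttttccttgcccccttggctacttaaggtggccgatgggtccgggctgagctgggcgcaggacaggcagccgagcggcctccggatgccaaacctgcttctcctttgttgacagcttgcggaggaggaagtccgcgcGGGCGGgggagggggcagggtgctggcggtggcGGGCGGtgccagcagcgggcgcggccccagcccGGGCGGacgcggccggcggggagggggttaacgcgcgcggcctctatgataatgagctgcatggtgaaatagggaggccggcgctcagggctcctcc
The SEMA3F window holds 12 GC boxes and 1 E-box, the PLXND1 window 9 GC boxes, and the SEMA3B window 4 GC boxes, 1 E-box and 1 TEAD motif. The NRP2 and PLXNA2 windows hold 3 GC boxes each. Of 35116 promoters of the same length, 45% held a GC box, 20.6% the E-box and 14% the TEAD motif. None of the 5 windows held the AP-1 motif TGANTCA, which 7.71% of all promoters held, or the NKX2-1 motif CAAGTG, which 11.5% held.

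RNA levels are rlog values, a log2 of the normalised read count that is drawn toward the mean of the 4 libraries where reads are few. Subtracting the naive rlog from that of a resistant line gave its change. A gene or peak was said to have risen or fallen at a change of at least 1 in size, which is 2-fold. The study's methods set this limit for genes, and it was applied to peaks here as well. All 10 genes were expressed, that is, at or above the log2 of 25 reads in at least 1 library, as were 12701 genes in the table.

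NRP2, ENSG00000118257.16, at chromosome 2 from 205681990 to 205798133 on the plus strand, moved in opposite directions between lines. Its RNA level was 7.55 in naive cells, 8.77 in erCriz0, 7.23 in erAlec0 and 6.53 in erLor0. erCriz0 was the only line above naive cells. NRP2 rose in erCriz0 by 1.22 (2.33-fold) and fell in erLor0 by 1.02, to 0.493 of the naive level, while erAlec0 was lower than naive cells by a difference that did not reach 2-fold (a change of −0.32). The fall in erLor0 was close to the limit, at −0.998 after centring the libraries on the expressed genes, where it no longer counts. The range of NRP2 over the 4 lines was 2.24, the widest of the 10 genes. In bulk RNA, fewer cells with NRP2 RNA and less of it per cell cannot be told apart.

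NRP1, ENSG00000099250.18, chromosome 10 from 33177492 to 33336262 on the minus strand, did not follow NRP2. Its RNA level was 10.59 in naive cells, 11.29 in erCriz0, 11.38 in erAlec0 and 10.97 in erLor0. All 3 resistant lines were above naive cells, by 0.70, 0.79 and 0.38, and no line reached 2-fold. Per kb of exon, the level of NRP1 exceeded that of NRP2 by 3.31 in naive cells, 2.79 in erCriz0, 4.42 in erAlec0 and 4.71 in erLor0. The lead of NRP1 over NRP2 was smallest in erCriz0 and largest in erLor0.

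Of the plexins, PLXND1 changed. PLXND1, ENSG00000004399.12, chromosome 3 from 129555175 to 129606818 on the minus strand, encodes a receptor for SEMA3E and, together with neuropilins, for other class 3 semaphorins. Its RNA level was 9.78 in naive cells, and 8.44, 9.35 and 9.62 in erCriz0, erAlec0 and erLor0. It fell in erCriz0 by 1.34, to 0.394 of the naive level, and the changes in erAlec0 and erLor0 were −0.43 and −0.16. In erCriz0, NRP2 and PLXND1 thus moved in opposite directions.

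PLXNA1, ENSG00000114554.11, a neuropilin partner, stood at 9.61 in naive cells, 9.46 in erCriz0, 9.74 in erAlec0 and 9.57 in erLor0. PLXNA2, ENSG00000076356.7, another neuropilin partner, stood at 6.66, 6.80, 6.88 and 6.71 in the same order. PLXNB1, ENSG00000164050.13, a receptor for the class 4 semaphorin SEMA4D, stood at 8.25, 8.20, 8.32 and 8.19. Each of these 3 plexins ranged over 0.28 or less across the 4 lines, and none reached 2-fold.

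SEMA3B, ENSG00000012171.20, chromosome 3 from 50267558 to 50277546 on the plus strand, gave the largest rise of the 10 genes. Its RNA level was 6.33 in naive cells, and 7.44, 8.30 and 6.64 in erCriz0, erAlec0 and erLor0. It rose in erAlec0 by 1.97 (3.91-fold) and in erCriz0 by 1.11 (2.16-fold), and was higher by 0.31 in erLor0. erLor0 stood 1.65 below erAlec0.

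SEMA3F, ENSG00000001617.12, chromosome 3 from 50155045 to 50189075 on the plus strand, stood at 11.30 in naive cells, 10.17 in erCriz0, 10.95 in erAlec0 and 10.45 in erLor0. All 3 resistant lines were below naive cells. SEMA3F fell in erCriz0 by 1.14, to 0.455 of the naive level, and the changes in erLor0 and erAlec0 were −0.86 and −0.35. The level of SEMA3F per kb of exon exceeded that of SEMA3B by 5.23 in naive cells, 2.98 in erCriz0, 2.92 in erAlec0 and 4.06 in erLor0. The balance between these neighbours shifted toward SEMA3B in each resistant line, most in erAlec0 and erCriz0.

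SEMA3A, ENSG00000075213.11, chromosome 7 from 83955777 to 84492724 on the minus strand, stood at 9.39 in naive cells, 10.10 in erCriz0, 9.94 in erAlec0 and 9.08 in erLor0. Its changes were 0.71, 0.55 and −0.31, so that erLor0 was the only line below naive cells. SEMA3C, ENSG00000075223.14, chromosome 7 from 80742538 to 80922359 on the minus strand, stood at 8.76, 8.53, 9.29 and 9.09, with changes of −0.23, 0.54 and 0.33. Neither reached 2-fold in any line.

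**Figure D1:**
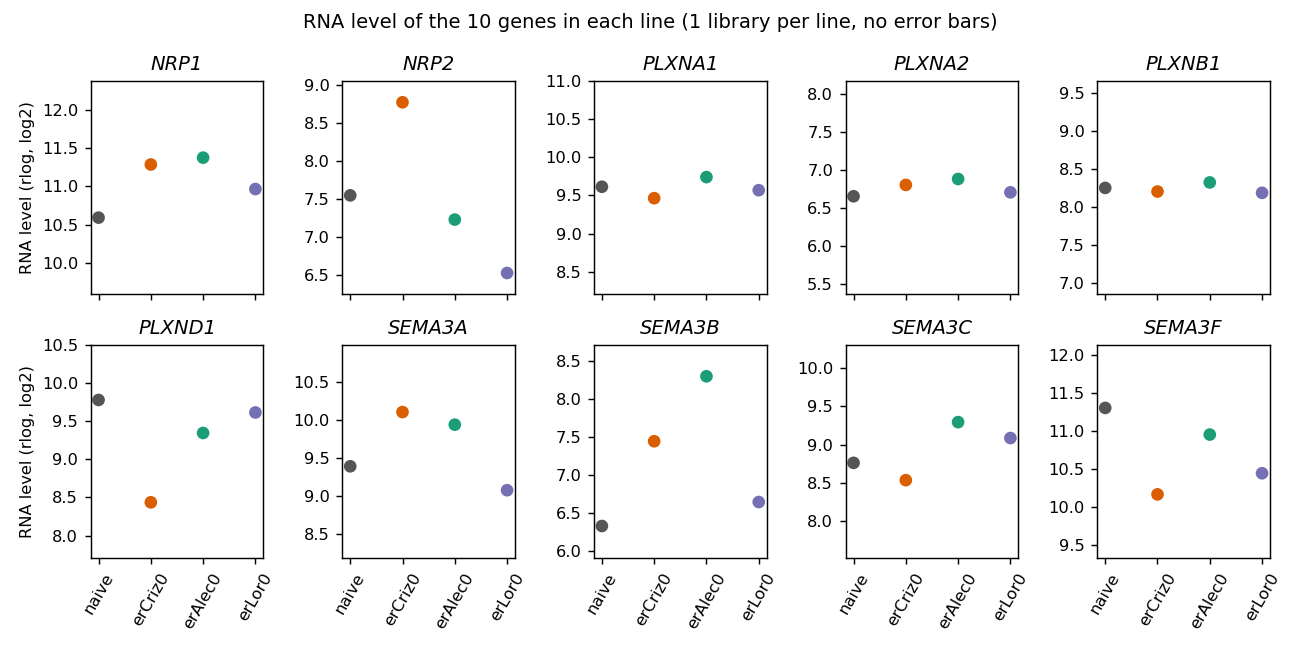
RNA level (vertical axis, rlog on a log2 scale) of each of the 10 genes in the 4 lines, 1 point per library, each panel spanning the same height. NRP2 is highest in erCriz0 at 8.77 and lowest in erLor0 at 6.53, SEMA3B is highest in erAlec0 at 8.30, and PLXND1 and SEMA3F are lowest in erCriz0 at 8.44 and 10.17.

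In erCriz0, 2 of the 10 genes rose (NRP2 and SEMA3B) and 2 fell (PLXND1 and SEMA3F), where 2.65% of expressed genes rose and 1.65% fell. In erAlec0, SEMA3B rose, so 1 of 10, and 0 fell, where 2.46% of expressed genes rose and 2.07% fell. In erLor0, 0 rose and 1 fell (NRP2), where 1.1% rose and 0.74% fell. The genes had been chosen with these changes in view, and nothing is read from the shares. Over the 10 genes the median change was 0.05, 0.18 and −0.06 in the 3 lines in this order, beside −0.017, 0.002 and −0.0043 over all expressed genes. At a limit of 1.5-fold, 6, 2 and 2 of the 10 genes changed in these lines, where 16.1%, 15.9% and 8.09% of expressed genes did.

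Per kb of exon, the RNA level in naive cells was highest for SEMA3F at 9.03, followed by NRP1 at 7.06 and PLXND1 at 6.52. SEMA3A at 6.18, SEMA3C at 6.15 and PLXNA1 at 6.12 were close together. PLXNB1 at 4.96, SEMA3B at 3.80, NRP2 at 3.75 and PLXNA2 at 2.86 were lowest. With 1 library, the order of close neighbours such as SEMA3B and NRP2 has no error to be set against.

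Changes in H3K27ac were then examined peak by peak at NRP2. The 17 peaks had a median change of 0.50 (erCriz0), −0.60 (erAlec0) and −0.59 (erLor0). In erCriz0, 12 of 17 were above naive cells, 2 rose and 0 fell, where 7% of all peaks rose and 5.94% fell. In erAlec0, 3 were above naive cells, 0 rose and 3 fell, where 14.1% of all peaks rose and 9.41% fell. In erLor0, none of the 17 was above naive cells, 0 rose and 1 fell, where 7.45% rose and 8.82% fell. The 383 peaks within 5 Mb had medians of −0.26, −0.12 and 0.00. NRP2 peaks thus lay above their surroundings in erCriz0 and below them in erAlec0 and erLor0.

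The peak over the NRP2 start, chromosome 2 from 205681645 to 205683061, which holds the NRP2 promoter window printed above, had H3K27ac levels of 5.75 in naive cells, and 7.13, 5.53 and 5.58 in erCriz0, erAlec0 and erLor0. It rose in erCriz0 by 1.38, and erAlec0 and erLor0 were close to naive cells at −0.22 and −0.17. At this peak, erCriz0 alone stood apart from the other 3 lines. Over the group of 4 peaks from 205680302 to 205685966 that includes it, the medians were 0.51, −0.59 and −0.53 in erCriz0, erAlec0 and erLor0. As a group, these peaks thus lay below naive cells in erAlec0 and erLor0.

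The longest NRP2 peak, 7794 bp in an intron from 205701966 to 205709759 and centred 23.9 kb into the gene, had levels of 9.47 in naive cells, and 10.44, 7.68 and 7.93 in erCriz0, erAlec0 and erLor0. It fell in erAlec0 by 1.79 and in erLor0 by 1.54, while erCriz0 was higher by 0.97, just under the limit. This peak therefore separated erCriz0 from erAlec0 and erLor0 on either side of naive cells.

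A peak of 5661 bp over an internal start, from 205745416 to 205751076 and centred 66.3 kb into the gene, separated erAlec0 from erLor0. Its levels were 9.47 in naive cells, and 10.31, 8.18 and 9.45 in erCriz0, erAlec0 and erLor0. It fell in erAlec0 by 1.29 and differed from naive cells by −0.02 in erLor0, so that erLor0 stood 1.27 above erAlec0. The intronic peak next to it, from 205751251 to 205752325, had levels of 5.78, 5.77, 4.56 and 5.40 in the same order, and fell in erAlec0 by 1.22. Over the group of 4 neighbouring peaks from 205744429 to 205755912, erLor0 exceeded erAlec0 by a median of 0.86, with a range from 0.18 to 1.27.

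Farther into the gene the order was the other way round. Over the 5 peaks from 205767733 to 205772200, erLor0 was below erAlec0 by a median difference of −0.46, with a range from −1.04 to −0.30. The most distal peak, in an intron from 205786683 to 205787061, had levels of 3.50 in naive cells, and 4.72, 3.90 and 3.40 in erCriz0, erAlec0 and erLor0, and rose in erCriz0 by 1.22. This peak reached the minimum of 15 reads that marks a measured peak, 3.91 on the log2 scale, in erCriz0 alone. It was thus named through the line in which it rose, and it is 1 of the 2 NRP2 peaks that rose there. RNA of NRP2 was lower in erLor0 than in erAlec0 by 0.70, although peaks of the group at the internal start were higher in erLor0.

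**Figure D2:**
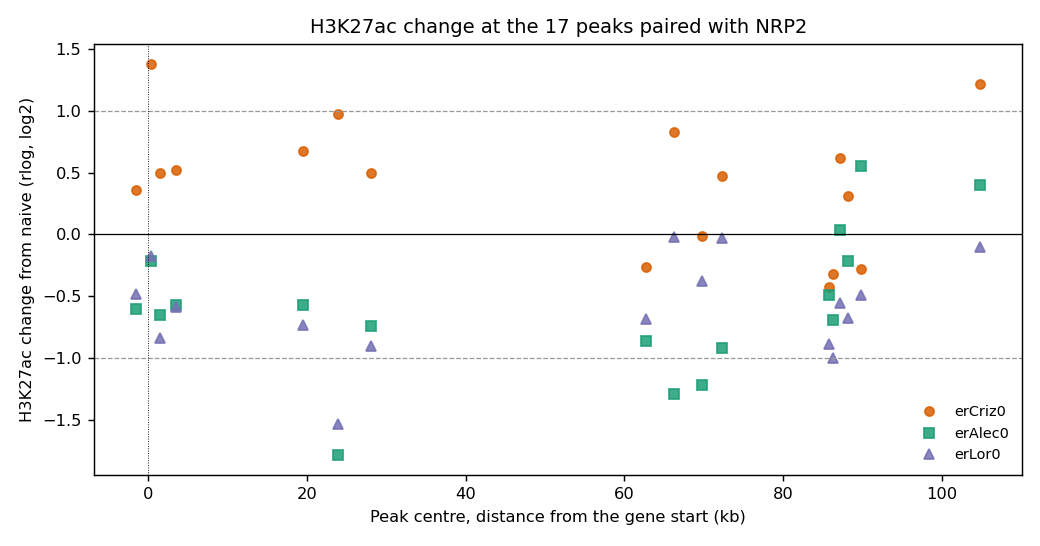
Change in H3K27ac from naive cells (vertical axis, rlog difference on a log2 scale) at the 17 peaks paired with NRP2, by the distance of the peak centre from the gene start (horizontal axis, kb), with 1 symbol per resistant line. erCriz0 lies mostly above 0, and at the internal start near 66.3 kb erLor0 stays at −0.02 while erAlec0 falls to −1.29.

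The sequence of the distal intronic peak that rose in erCriz0 and the AP-1 motifs of the 3 long peaks that separated the lines are shown, since AP-1 sites are common in enhancers. The motif TGANTCA, which reads the same on both strands, is in capitals.
NRP2 distal peak centre, chr2:205786722-205787021, plus strand: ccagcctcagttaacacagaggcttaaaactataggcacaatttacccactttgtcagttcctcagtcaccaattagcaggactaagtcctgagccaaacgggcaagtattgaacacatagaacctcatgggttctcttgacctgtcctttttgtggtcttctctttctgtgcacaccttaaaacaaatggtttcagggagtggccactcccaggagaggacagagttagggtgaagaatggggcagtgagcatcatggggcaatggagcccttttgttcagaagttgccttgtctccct
NRP2 intronic peak, chr2:205706961-205707007, plus strand: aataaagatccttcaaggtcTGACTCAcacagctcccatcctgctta
NRP2 internal start peak, chr2:205746500-205746546, plus strand: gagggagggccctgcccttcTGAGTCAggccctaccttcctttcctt
NRP2 internal start peak, chr2:205748799-205748845, plus strand: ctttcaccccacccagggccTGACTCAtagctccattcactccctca
NRP2 internal start peak, chr2:205748879-205748925, plus strand: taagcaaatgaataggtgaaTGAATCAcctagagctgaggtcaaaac
PLXND1 intronic peak, chr3:129596339-129596385, plus strand: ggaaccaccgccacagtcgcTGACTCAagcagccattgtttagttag
PLXND1 intronic peak, chr3:129599713-129599759, plus strand: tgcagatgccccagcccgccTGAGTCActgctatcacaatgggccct
The distal window holds none of the 5 motifs searched. The long NRP2 intronic peak holds 1 AP-1 motif, or 0.128 per kb, the internal start peak 3, or 0.530 per kb, and the PLXND1 peak 2, or 0.260 per kb, beside 0.356 per kb over all peaks.

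At PLXND1 several peaks did not follow the RNA, and all 15 of its peaks are also paired with at least 1 other gene. Its 15 peaks had medians of 0.25, −0.33 and −0.47 for erCriz0, erAlec0 and erLor0, beside 0.27, 0.37 and 0.24 over the 565 peaks within 5 Mb. In erCriz0 the median was thus that of the surroundings, from which it differed by −0.014. In this line, where PLXND1 RNA fell, 3 of the 15 peaks rose and 0 fell. Of all peaks, 7% rose and 5.94% fell in erCriz0. An intronic peak from 129591948 to 129592302, 1 of the 3, reached the minimum of 15 reads in erCriz0 alone. The longest intronic peak, 7701 bp from 129592803 to 129600503, had levels of 9.10 in naive cells, and 10.61, 7.58 and 7.88 in erCriz0, erAlec0 and erLor0. It rose in erCriz0 by 1.51, and fell in erAlec0 by 1.52 and in erLor0 by 1.21. The peak in the coding exon near the start, from 129605567 to 129606525, had levels of 4.76, 5.81, 5.64 and 5.86, and rose in erCriz0 by 1.05 and in erLor0 by 1.10. The PLXND1 promoter window printed above lies between this peak and the next one upstream. The peak over an internal start, from 129576930 to 129578677, had levels of 5.86, 6.51, 6.11 and 6.96, and rose in erLor0 by 1.10. The intronic peak of PLXND1 and the long intronic peak of NRP2 were both above naive cells in erCriz0 and fell in erAlec0 and erLor0, whereas their RNA moved in opposite directions in erCriz0.

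PLXNA2 showed a rise in H3K27ac with nearly the same RNA. Its 11 peaks had medians of 0.26, 0.74 and 1.09 for erCriz0, erAlec0 and erLor0, beside 0.15, −0.04 and −0.09 over the 614 peaks within 5 Mb. In erLor0 all 11 were above naive cells and 6 rose, in erAlec0 3 rose, and no PLXNA2 peak fell in any line. Of all peaks, 7.45% rose in erLor0 and 14.1% in erAlec0. A peak of 9356 bp, chromosome 1 from 208228989 to 208238344, had levels of 8.20 in naive cells, and 8.95, 9.88 and 10.32 in erCriz0, erAlec0 and erLor0, and rose by 1.68 in erAlec0 and by 2.12 in erLor0. The peak over the start, from 208242866 to 208244416, had levels of 6.39, 7.09, 7.12 and 7.999 and rose in erLor0 by 1.61. PLXNA2 RNA differed from naive cells by 0.05 in erLor0.

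PLXNA1 had 12 peaks with medians of 0.24, 0.04 and 0.01 in erCriz0, erAlec0 and erLor0, beside 0.25, 0.29 and 0.23 over the 555 peaks within 5 Mb. A peak downstream of the gene, chromosome 3 from 127042112 to 127045318, had levels of 6.50 in naive cells, and 5.92, 8.93 and 7.16 in erCriz0, erAlec0 and erLor0. Its rise of 2.44 in erAlec0 was the largest at the 244 peaks. The peak over a PLXNA1 start, from 126982373 to 126982973, had levels of 4.98, 5.32, 5.80 and 5.79, and changed in no line. PLXNB1, with 9 peaks, had none that changed in any line, and its medians were −0.05, 0.02 and 0.37, beside 0.13, 0.18 and 0.19 over the 675 peaks within 5 Mb. The peak over the PLXNB1 start, chromosome 3 from 48424430 to 48433021, had levels of 9.55, 9.87, 9.60 and 10.07. The largest PLXNB1 difference was −0.68 in erLor0, at an upstream peak from 48434069 to 48434934 with levels of 5.16, 4.66, 4.53 and 4.47. Each of the 9 PLXNB1 peaks is also paired with at least 1 other gene.

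At SEMA3F, H3K27ac was below naive cells at each of its 19 peaks in all 3 resistant lines. For erCriz0, erAlec0 and erLor0 the medians were −1.11, −1.12 and −1.01. Among the 19 peaks 10, 12 and 11 fell, where 5.94%, 9.41% and 8.82% of all peaks fell. The 635 peaks within 5 Mb had medians of 0.13, 0.17 and 0.20. Each of these peaks is also paired with at least 1 other gene, and each change rests on the same naive library.

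The 22748 bp peak that starts at the SEMA3F promoter, chromosome 3 from 50154998 to 50177745, changed least in erCriz0. Its levels were 12.62 in naive cells, 12.28 in erCriz0, 11.32 in erAlec0 and 12.05 in erLor0, a change of −0.34, −1.30 and −0.57. Farther along, an intronic peak from 50179389 to 50180338 had levels of 5.46, 3.51, 3.67 and 3.94, and fell by 1.95, 1.79 and 1.52. The peak over an internal start, from 50180525 to 50184955, had levels of 8.16, 6.71, 6.67 and 6.94, and fell by 1.45, 1.49 and 1.22. SEMA3F RNA, however, was lower by only 0.35 in erAlec0, the line with the largest decline at the promoter peak.

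SEMA3B, downstream of SEMA3F, had 18 peaks with medians of 0.32, 0.40 and 0.03, beside 0.11, 0.16 and 0.20 over the 640 peaks within 5 Mb. In erAlec0, 3 adjoining peaks before its start rose, and none fell, where 14.1% of all peaks rose and 9.41% fell. The peak from 50263683 to 50264818 had levels of 4.98 in naive cells, and 5.38, 6.19 and 5.13 in erCriz0, erAlec0 and erLor0, a rise of 1.21 in erAlec0. The next, from 50264972 to 50266751, had levels of 5.96, 6.39, 7.08 and 5.79, a rise of 1.12, and the third, from 50266916 to 50267522, which overlaps the SEMA3B promoter window, had levels of 4.03, 4.26, 5.10 and 4.30, a rise of 1.07. In erLor0 the changes at these 3 peaks were 0.15, −0.17 and 0.27. In erCriz0, where SEMA3B RNA also rose, they were 0.40, 0.43 and 0.23. None of the 3 peaks over SEMA3B starts changed in any line. The longest of them, from 50269176 to 50270115, had levels of 5.22, 5.81, 5.94 and 5.58, a difference of 0.71 in erAlec0. Every SEMA3B peak is paired with 5 to 8 genes, and 4 of the 5 peaks downstream lie at a start of IFRD2, HYAL3 or NAA80.

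**Figure D3:**
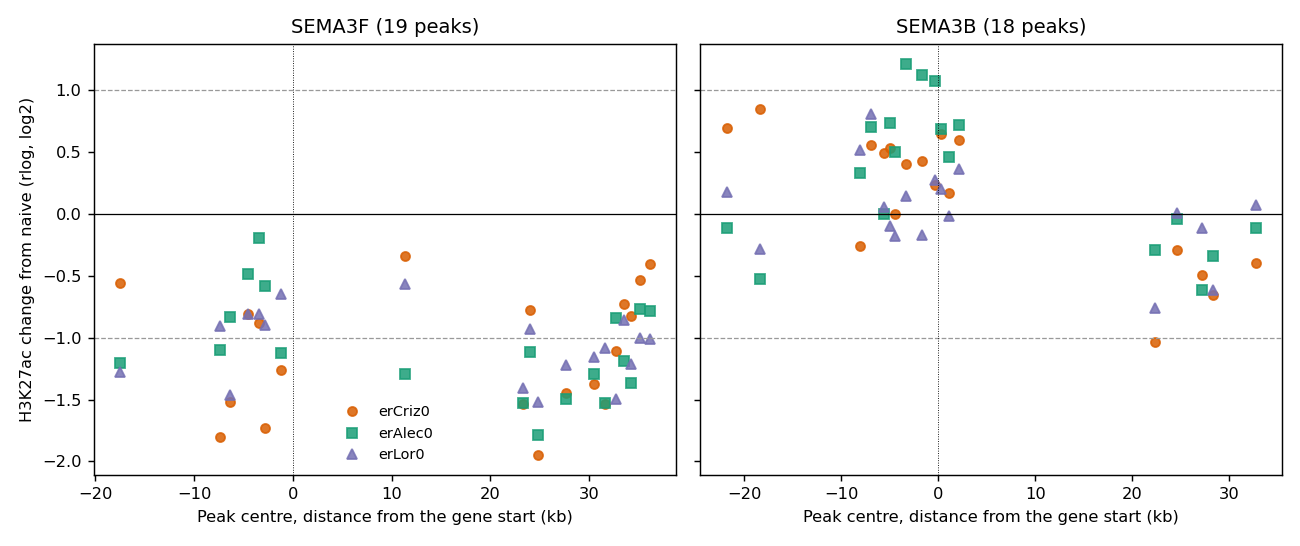
Change in H3K27ac from naive cells (vertical axis, rlog difference on a log2 scale) at the peaks paired with SEMA3F and with SEMA3B, by the distance of the peak centre from each gene's start (horizontal axis, kb). All 19 SEMA3F peaks lie below 0 in the 3 lines, and the 3 SEMA3B peaks just before the start reach between 1.07 and 1.21 in erAlec0.

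At NRP1 and SEMA3A, peaks fell in erAlec0 while the RNA was higher. NRP1 had 65 peaks with medians of −0.21, −0.79 and −0.54 for erCriz0, erAlec0 and erLor0. Of these, 1, 19 and 7 fell, where 5.94%, 9.41% and 8.82% of all peaks fell. NRP1 peaks that rose numbered 2, 0 and 0, where 7%, 14.1% and 7.45% of all peaks rose. In erCriz0 1 of the 2 was at or above the minimum of 15 reads. The 402 peaks within 5 Mb had medians of 0.01, 0.62 and 0.27. The 25195 bp peak over an internal NRP1 start, chromosome 10 from 33243887 to 33269081, had levels of 12.02, 12.28, 11.16 and 11.53. A coding exon peak from 33193585 to 33197792 had levels of 8.47, 8.02, 6.82 and 7.12, and fell by 1.65 in erAlec0 and 1.35 in erLor0. The outermost start peak of NRP1, from 33330686 to 33338087, was higher in each resistant line, at 9.61, 10.36, 9.89 and 9.82.

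SEMA3A had 67 peaks with medians of −0.24, −0.73 and −0.86 for erCriz0, erAlec0 and erLor0, beside −0.17, 0.06 and −0.43 over the 188 peaks within 5 Mb. Of the 67, 2, 17 and 27 fell, where 5.94%, 9.41% and 8.82% of all peaks fell. Less the regional median, the erLor0 median was −0.42 and the erCriz0 median −0.08. An intronic peak, chromosome 7 from 84068214 to 84074101, had levels of 9.01 in naive cells, and 9.12, 6.74 and 6.67 in erCriz0, erAlec0 and erLor0, and fell by 2.26 in erAlec0 and by 2.33 in erLor0. The peak over an internal SEMA3A start, from 84191863 to 84197112 and centred 298 kb into the gene, had levels of 8.79, 9.37, 8.65 and 8.38. It changed in no line. No paired peak lay at the outermost start of SEMA3A, and the nearest was centred 42.2 kb from it. In erAlec0, 7 of the 67 SEMA3A peaks rose, where 14.1% of all peaks rose. Only 3 of the 7 reached the minimum of 15 reads, and these did so in erAlec0 alone. All 7 lie outside the group of 30 peaks from 84040256 to 84151287, where 10 fell in erAlec0 and 19 in erLor0.

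SEMA3C had 11 peaks with medians of 0.11, −0.65 and −0.73. Of these, 0, 1 and 3 fell, where 5.94%, 9.41% and 8.82% of all peaks fell. Among SEMA3C peaks at or above the minimum of 15 reads, 0 fell in erAlec0 and 2 in erLor0. The 362 peaks within 5 Mb had medians of −0.08, −0.21 and −0.30, and less these the SEMA3C medians were 0.19, −0.44 and −0.42. An intronic SEMA3C peak, chromosome 7 from 80901540 to 80902248, had levels of 4.65, 4.07, 3.66 and 3.44, and fell in erLor0 by 1.20. The peak over the SEMA3C start, chromosome 7 from 80919183 to 80925781, had levels of 9.97, 10.20, 9.17 and 9.43. SEMA3C RNA was higher in erAlec0 and erLor0, where this peak was lower by 0.80 and 0.54.

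**Figure D4:**
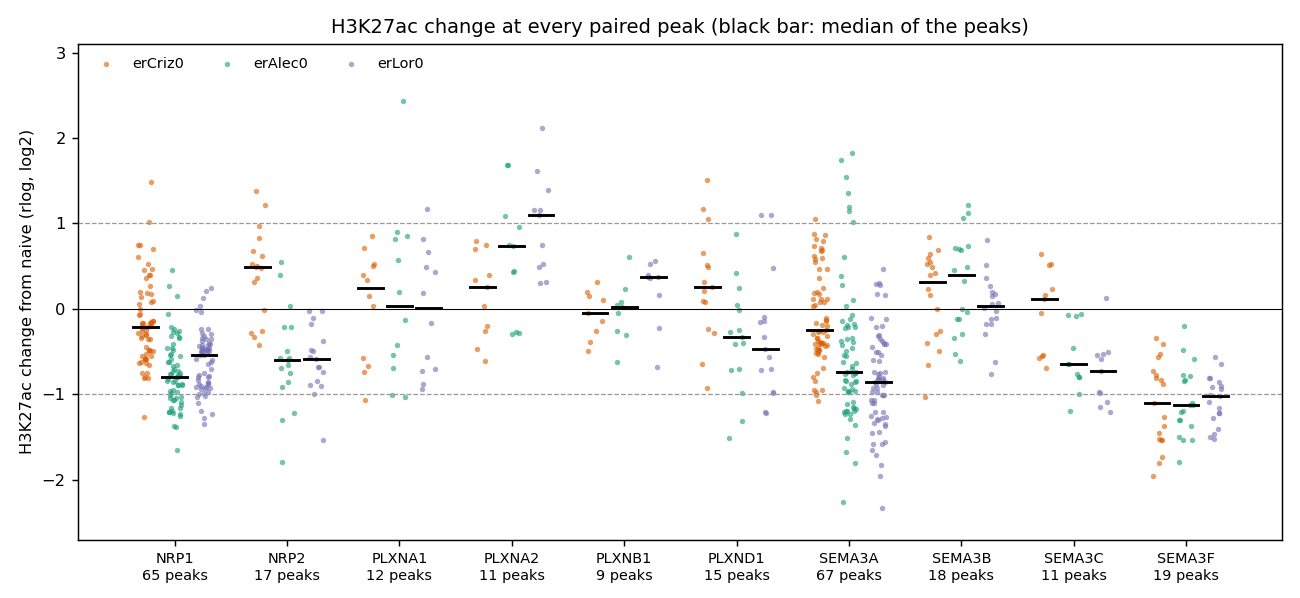
Change in H3K27ac from naive cells (vertical axis, rlog difference on a log2 scale) at every paired peak, by gene and resistant line, with a black bar at the median of a gene's peaks. SEMA3F lies below 0 in all 3 lines (medians −1.11, −1.12 and −1.01), and PLXNA2 is highest in erLor0, with a median of 1.09.

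Over the 244 peaks of the 10 genes, 8 rose and 15 fell in erCriz0, where 7% and 5.94% of all peaks did. In erAlec0 14 rose and 56 fell, where 14.1% and 9.41% did, and in erLor0 9 rose and 51 fell, where 7.45% and 8.82% did. Medians were −0.16, −0.62 and −0.59, beside 0.00 in each line over all peaks. At a limit of 1.5-fold, 83, 152 and 136 of the 244 changed, where 37.2%, 49.3% and 41.8% of all peaks did. SEMA3A and NRP1 hold 132 of these peaks, and peaks of 1 gene are not independent. Peaks of at least 2 kb numbered 44 and had medians of 0.21, −0.51 and −0.46, beside 0.25, 0.11 and 0.23 for all 21861 such peaks.

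The direction of a gene's RNA matched that of its median peak in 5, 7 and 6 of 10 genes for erCriz0, erAlec0 and erLor0. Over the 8758 expressed genes with at least 5 peaks the share was 53.6%, 50.5% and 53.6%. NRP2, PLXNA2, SEMA3B and SEMA3F matched in all 3 lines. For PLXNA2 the match was in sign only, since its RNA changes were small, at 0.15, 0.23 and 0.05. The SEMA3B median in erLor0, 0.03, turned to −0.17 less the regional median, against an RNA change of 0.31. PLXND1 in erCriz0 was opposite, with an RNA change of −1.34 and a median peak change of 0.25, which was −0.014 less the regional median. NRP1 in erAlec0 was opposite too, with 0.79 for RNA and −0.79 for peaks.

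**Figure D5:**
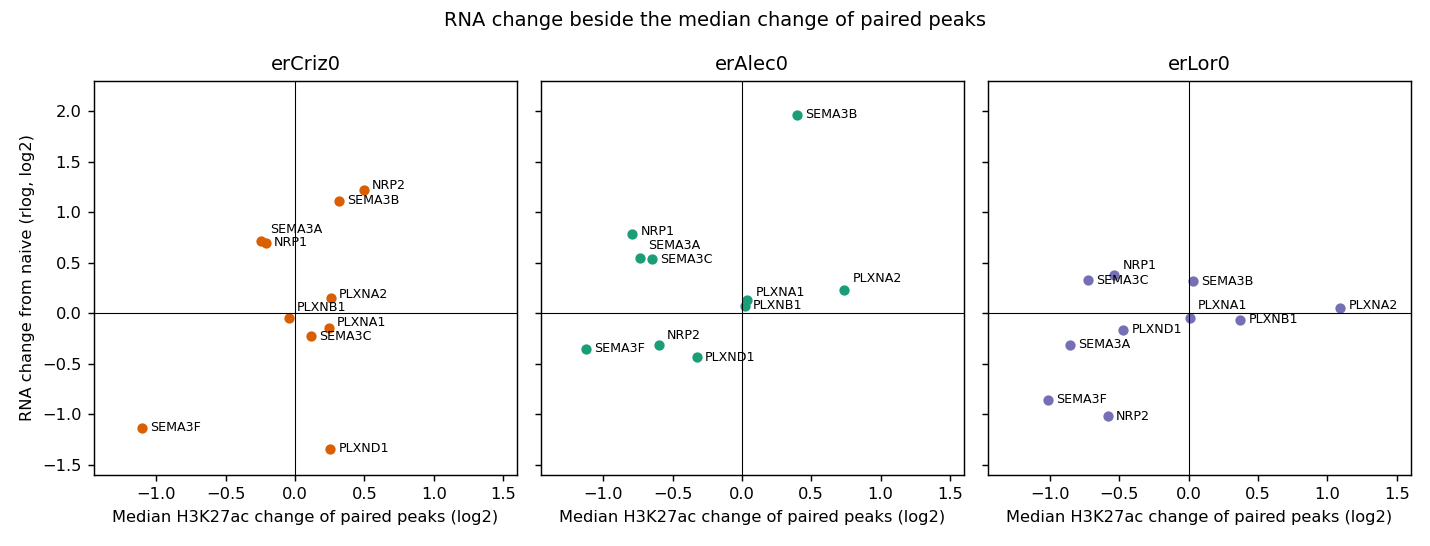
RNA change from naive cells (vertical axis, rlog difference on a log2 scale) beside the median H3K27ac change of a gene's peaks (horizontal axis, log2), 1 panel per resistant line and 1 point per gene. SEMA3F lies in the lower left in each panel, PLXND1 lies at −1.34 for RNA and 0.25 for peaks in erCriz0, and PLXNA2 lies at 1.09 for peaks with RNA at 0.05 in erLor0.

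A list of 53 other genes of the pathway held other plexins and semaphorins, VEGF ligands and receptors, and cytoplasmic partners. Of these, 50 were in the table and 37 were expressed, and SEMA5A, L1CAM and DPYSL5 were not analysed here. In erCriz0 0 of the 37 rose and 2 fell, where 2.65% and 1.65% of expressed genes did. In erAlec0 1 rose and 0 fell, where 2.46% and 2.07% did, and in erLor0 0 changed, where 1.1% rose and 0.74% fell. KDR, the main VEGF receptor of endothelium and a partner of neuropilins, stood at 6.58 in naive cells, and 5.43, 6.02 and 7.01 in erCriz0, erAlec0 and erLor0, and fell in erCriz0 by 1.15. RHOD, a small GTPase that binds plexins, stood at 5.80, 4.62, 5.66 and 5.77, and fell in erCriz0 by 1.19. MICAL2, of a family of enzymes that take apart actin downstream of plexins, stood at 9.98, 10.35, 11.01 and 10.65, and rose in erAlec0 by 1.02. Over the 37 expressed genes the medians were −0.17, 0.11 and 0.16 for erCriz0, erAlec0 and erLor0.

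The 5 genes whose 3 RNA changes lay closest to those of NRP2, by Euclidean distance among the 12701 expressed genes, were DHRS9 (0.205), ERAP2 (0.236), MUC13 (0.348), AGPAT4 (0.387) and MCTP1 (0.413). DHRS9 had changes of 1.11, −0.35 and −1.19 in erCriz0, erAlec0 and erLor0. These likenesses rest on 3 changes that share a naive library.

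The labelled cell type was checked on 12 markers, of which 11 were in the table. The epithelial genes EPCAM, KRT8, KRT18 and CDH1 stood between 11.38 and 15.17 in every line, and NKX2-1 of lung epithelium between 8.67 and 9.18. The leukocyte marker PTPRC was at 0 and PECAM1, VWF and PDGFRB did not exceed 2.20. CDH5, an endothelial cadherin, stood at 4.10, 4.28, 5.78 and 5.64 and rose in erAlec0 by 1.68 and in erLor0 by 1.54, and COL1A1 stood between 9.49 and 10.08. Their part in the values of the 10 genes was not tested. Genes that overlap the 10 on either strand and have a row in the table stood at 1.54 or lower, which bears on unstranded counting, since the strand setting is not given in the sources used here.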

How the data were processed

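Naive H3122 cells, erCriz0, erAlec0 and erLor0 were profiled by bulk RNA-seq and by H3K27ac ChIP-seq, each as 1 library per line. The remaining 4 of 8 samples were not analysed here. The authors deposited 1 table of peak and gene pairs at most 20 kb apart, with log2 (rlog) values computed with DESeq2. RNA reads had been aligned to hg38 with HISAT2 and counted with HTSeq-count. ChIP reads had been aligned with BWA, duplicates removed, peaks called with MACS2 at 0.05 and merged over samples, and reads counted with featureCounts. Versions are not given in the sources used here. No input subtraction is stated. The table also holds the authors' correlation of each pair with its p-value and adjusted p-value, and mean values, none of which was used. Read depth cannot be recovered from rlog values and is unknown, so no counting error is given. All 8 columns of per-sample values were mapped to a sample.

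Coordinates were converted to 1-based. Changes were differences of rlog values, with a limit of 1. Minimums were the log2 of 25 reads for genes and of 15 for peaks. Peaks were annotated with GENCODE release 44. Named are the 10 genes, pathway genes that changed, the 5 genes nearest to NRP2, and, for the peaks, the longest over a start and the largest change per gene, and up to 10 NRP2 peaks with a change of at least 1. Peaks named beyond this rule, such as the outermost NRP1 start peak and the PLXND1 exon peak, were chosen after their values were seen. Members and lists were chosen with earlier results of these data known. No test was run. Alternatives were centring, quantile normalization, a 1.5-fold limit, peaks paired with 1 gene, peaks within 5 kb, a minimum level and changes less the regional median within 5 Mb. Python 3.11.15, numpy 2.4.6, pandas 2.3.3 and matplotlib 3.10.9 were used, and the scripts were tested on simulated data.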

Additional observations from a re-analysis of the deposited data

Results flagged for a closer look

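NRP2 RNA differed between resistant lines in direction: it rose in erCriz0 and fell in erLor0, and the change in erCriz0 exceeded that in erLor0 by 2.24 on the log2 scale. The difference was not tested, since each line has 1 library.

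The intronic PLXND1 peak at chromosome 3 from 129592803 rose in erCriz0 and fell in erAlec0, and the erCriz0 change exceeded the erAlec0 change by 3.03 on the log2 scale. This difference was not tested either.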

How the results depend on the processing

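No paired analysis was possible because each line has 1 library, and for the same reason no replicate could be left out. Of 141 values under other settings, 119 stayed close to the reported value and 22 moved. Reversal was defined only for single RNA changes of at least 1 in size, and 0 of those reversed. Some values could not move, since all 10 genes pass the gene minimum and all 17 NRP2 peaks lie within 5 kb. Close means within a factor of 1.5 for a count, which includes the step from 4 to 6 genes in erCriz0 at a 1.5-fold limit, within 0.1 for a median, and within 0.1 and on the same side of the limit for a single change. After centring over expressed genes, 0 of the 10 genes changed in erLor0 instead of 1, since NRP2 then stood at −0.998. With a 1.5-fold limit, 2 of the 10 genes changed in erAlec0 and 2 in erLor0, instead of 1 each. The 50 other pathway genes were counted whether expressed or not. Of these, 10, 9 and 5 changed in erCriz0, erAlec0 and erLor0 instead of 2, 1 and 0. At this limit 16.1%, 15.9% and 8.09% of expressed genes changed. Among the 17 NRP2 peaks, 6, 9 and 9 changed instead of 2, 3 and 1. Of the 244 peaks, 83, 152 and 136 changed instead of 23, 70 and 60. The shares of all peaks were 37.2%, 49.3% and 41.8%. Restricted to peaks paired with 1 gene, 6, 36 and 37 peaks of the 10 genes changed, 1 NRP2 peak changed in erAlec0, and the NRP2 median in erCriz0 was 0.60. Less the regional median within 5 Mb, 4 NRP2 peaks changed in erCriz0 with a median of 0.76, the NRP2 median in erAlec0 was −0.48, and 110 peaks of the 10 genes changed in erAlec0. Apart from what each setting does by its construction, causes were not tested. Depth is unknown, so the precision of low peaks cannot be stated.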

Other observations

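Among other genes of the pathway, several had H3K27ac peaks that rose where the RNA did not reach 2-fold. Over all peaks, 7%, 14.1% and 7.45% rose in erCriz0, erAlec0 and erLor0. In erCriz0 5.94% of all peaks fell, and in erAlec0 9.41% did. SEMA3E, the semaphorin ligand of PLXND1, had 16 peaks, of which 11 rose in erAlec0 and 3 in erLor0, with RNA changes of 0.08 and −0.24. SEMA5B had 7 peaks, of which 6 rose in erAlec0, with an RNA change of 0.13. SEMA5B was not expressed, since its RNA was below the gene minimum in every line. It stood at 2.46 in naive cells, and 2.20, 2.59 and 2.23 in erCriz0, erAlec0 and erLor0. At such levels rlog values are drawn toward their mean, so the SEMA5B change cannot show whether its RNA stayed level. FLT1, a VEGF receptor, had 14 peaks, of which 9 rose in erAlec0, with an RNA change of 0.07. DPYSL3, of a family that relays semaphorin signals to the cytoskeleton, had 12 peaks, of which 5, 8 and 5 rose in erCriz0, erAlec0 and erLor0, with RNA changes of 0.72, −0.17 and 0.0027. KDR had 7 peaks, of which 4 rose in erLor0, and 1 rose and 0 fell in erCriz0, where its RNA fell by 1.15. PLXNB3 had 17 peaks, of which 8 fell in erAlec0 and 0 rose. These genes were picked after their peak values were seen, as those with at least 5 peaks and over 40% of them changed one way in a line.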
